A study of Rattus norvegicus with 12 samples.

Results

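Voltage-gated sodium channels open when a neuron's membrane depolarises and carry the inward current of the action potential. A pore-forming alpha subunit holds the voltage sensors and the gate, and beta subunits, small proteins with an immunoglobulin-like outer domain, alter its gating, its delivery to the surface and its adhesion to neighbouring cells. In central neurons the channels are packed at the axon initial segment, where the spike starts, and rodent neurons exchange one alpha subunit for another there as they mature.

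The genes described are 4 alpha subunits (Scn1a, Scn2a, Scn3a and Scn8a) and 3 beta subunits (Scn2b, Scn3b and Scn4b), 7 of the 14217 genes that the array's probe table names. A probe set, the group of oligonucleotides that reads 1 transcript, was taken when its single gene symbol was one of the 7. That gave 9 of the 20826 probe sets with 1 symbol. Scn2b and Scn3b have 2 each, and the brighter one stands for the gene.

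Total RNA came from rat cerebellar granule neuron cultures, the small glutamatergic neurons of the cerebellum that can be grown nearly pure. The 12 arrays form 4 groups of 3: low potassium (LK) at 3 h and at 6 h, and the chemical compound GW5074 (GW), a kinase inhibitor, at 3 h and at 6 h. The 3 arrays of a group carry the letters A, B and C. Whether the GW cultures had low potassium too is not stated in the labels. Nor is it stated that the letters are separate cultures, and the p-values then measure only the spread between these samples, which may be technical. No group is labelled as untreated or raised potassium. An effect of treatment time and one of culture age cannot be told apart in the change from 3 h to 6 h. The title of GW 6 h letter A ends differently from the other 11 titles, with no meaning given in the sources used here. Strain, age and culture days are not given there either. In RNA from whole cultures, fewer cells of a type and less RNA per cell cannot be told apart.

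Granule neuron markers were high: 13 of 14 are on the array and all 13 passed the filter on low signal, with a mean intensity of 2358 for Neurod1. Gfap, the astrocyte filament, was also present at 1125. Of 10 oligodendrocyte lineage markers 9 are on the array and 7 passed, Mbp at 1863 and Cnp at 537 the brightest. All 7 Purkinje and GABAergic neuron markers passed, Gad1 at 544 the brightest. Of 10 microglial and macrophage markers 6 passed the filter, Cd68 at 123 and C1qa at 116 the brightest, and of 8 endothelial and fibroblast markers 3 passed, all of them collagens. The endothelial genes Cldn5, Kdr and Pecam1 lay below it. A first principal component separated the times. On a scale from the 3 h mean (0) to the 6 h mean (1), the 3 h arrays lay between -0.0844 and 0.115. The 6 h letter B arrays lay at 0.691 (LK) and 0.628 (GW) and the other 6 h arrays between 1.1 and 1.23, so the changes with time of the members and of the other genes named were also computed without both letter B arrays.

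The promoter sequences of the 3 genes that changed with time are shown first, because Scn2a and Scn3a, adjacent genes on rat chromosome 3, and Scn2b, on chromosome 8, moved in the same direction. Promoter entries were found for 5 of the 7 genes. They come from RefSeq (build GRCr8) and are 300-base windows around a start site, given 5′ to 3′ on the gene's strand. The windows lie at chr3:70710706-70711005 on the plus strand (Scn2a), chr3:70666149-70666448 on the minus strand (Scn3a) and chr8:54322133-54322432 on the plus strand (Scn2b). Capitals mark the match to an AP-1 element.
Scn2a: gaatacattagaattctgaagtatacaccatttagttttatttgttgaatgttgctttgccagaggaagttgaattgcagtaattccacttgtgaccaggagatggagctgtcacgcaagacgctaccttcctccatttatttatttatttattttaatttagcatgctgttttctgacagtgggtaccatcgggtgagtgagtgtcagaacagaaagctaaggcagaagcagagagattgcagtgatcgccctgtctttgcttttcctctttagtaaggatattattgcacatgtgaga
Scn3a: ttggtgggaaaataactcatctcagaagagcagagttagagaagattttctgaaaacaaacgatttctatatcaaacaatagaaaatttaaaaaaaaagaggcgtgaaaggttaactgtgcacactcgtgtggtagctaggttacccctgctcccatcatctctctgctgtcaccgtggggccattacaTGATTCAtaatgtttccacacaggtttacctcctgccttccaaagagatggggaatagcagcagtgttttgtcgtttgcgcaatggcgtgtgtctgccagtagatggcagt
Scn2b: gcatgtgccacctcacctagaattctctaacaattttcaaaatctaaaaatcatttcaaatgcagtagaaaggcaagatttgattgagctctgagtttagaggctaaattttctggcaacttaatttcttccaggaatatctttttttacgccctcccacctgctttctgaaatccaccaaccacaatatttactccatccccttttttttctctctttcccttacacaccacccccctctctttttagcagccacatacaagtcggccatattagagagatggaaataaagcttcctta
The G and C content was 39.3% for Scn2a, 43.3% for Scn3a and 39% for Scn2b. It was 84.7% for Scn8a and 70% for Scn4b, which were below the filter and not tested for change. Scn1a and Scn3b had no promoter entry. The content over all promoters was not computed, and a link with the changes was not tested. The motifs searched on both strands were the AP-1 element TGANTCA, the cyclic AMP response element TGACGTCA, the TATA box TATAAA, the GC box GGGCGG and the MEF2 element. The only match in the 3 printed windows was TGATTCA in Scn3a at positions -61 to -55 from the start site, and it overlapped no other motif. Of 33469 rat promoters in the table, 7.33% hold the AP-1 element, 1.83% the cyclic AMP response element, 14.2% the TATA box, 33.1% the GC box and 3.29% the MEF2 element. The Scn8a window held 7 GC boxes. A match describes letters in a window and is not a measured binding site.

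All values below are the deposited intensities of a probe set, which are linear and were scaled to the same trimmed mean on each array. Changes are in log2 of the quantile-normalised intensity with 16 added, so the fold of a dim gene is understated and a fold differs from the ratio of 2 intensities. Levels of different probe sets are not set against each other. A probe set entered the tests when its mean over the 12 arrays reached the 40th percentile, an intensity of 28. This kept 6 of the 9 probe sets, for 5 of the 7 genes, and left Scn8a, Scn4b and the dimmer Scn2b probe set untested. Scn3a passed only through its 6 h arrays, since its 3 h means lay below that intensity, so its entry into the tests depended on the rise itself. It is given as a description beside Scn2b and Scn2a, with its values when no filter was set.

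**Figure D1:**
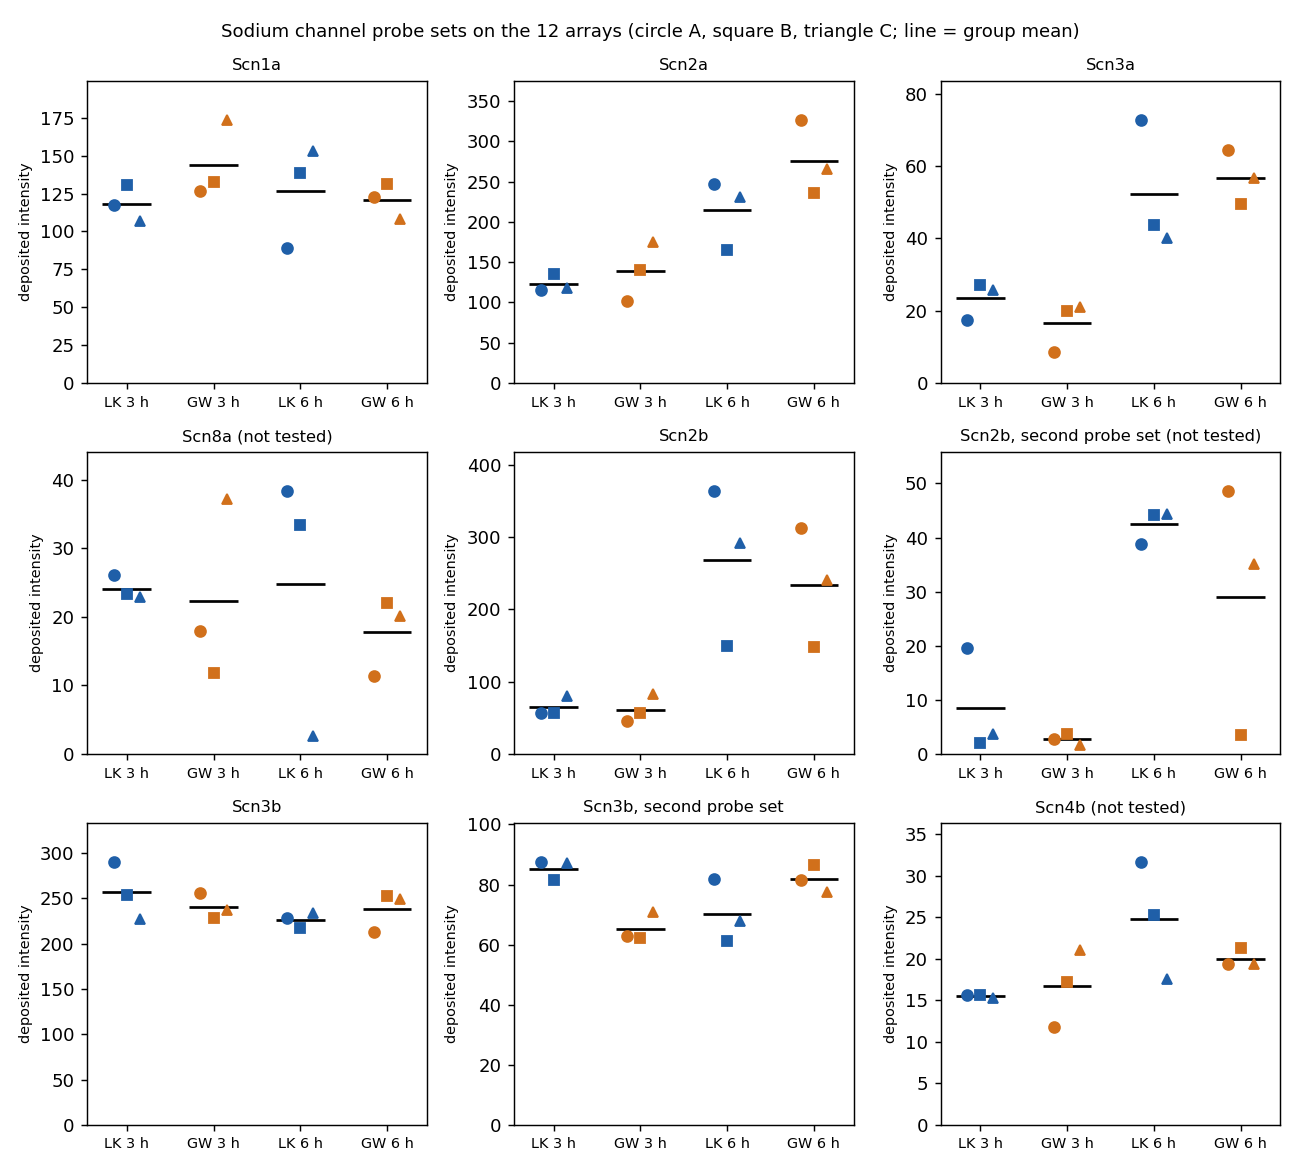
Deposited intensity (y axis, linear, a separate scale in each panel) of the 9 sodium channel probe sets in the 4 groups, 1 point per array with a line at the mean of 3. All 6 h points of Scn2a, Scn3a and the brighter Scn2b probe set lie above the 3 h points of the same treatment, while across treatments the highest Scn2a value at 3 h (174 in GW) passed the lowest at 6 h (166 in LK).

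Scn2b and Scn2a rose from 3 h to 6 h in low potassium and in GW, and no sodium channel probe set fell past the threshold (limma, Benjamini-Hochberg adjusted p of 0.05 over 18625 probe sets). Scn3a was also past the threshold in both treatments, which makes 3 of the 6 tested probe sets, a count that the filter helped to set and that supports nothing about the family. The background of these counts is large: 11.6% of all probe sets rose and 11% fell in low potassium, and 13.1% rose and 11.9% fell in GW. Scn1a and Scn3b did not pass. The 2 time comparisons share no array, but they are not independent of each other. After removal of the group means, LK and GW arrays of the same letter and time correlated by 0.209 to 0.65. Both comparisons also use 1 estimate of the spread from all 12 arrays.

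The largest change belonged to Scn2b, the beta subunit that is bound to the alpha subunit by a disulfide bond and raises the number of channels at the surface. Its intensities at 3 h in low potassium were 56.4, 56.6 and 80.5 for letters A, B and C. At 6 h they were 363, 149 and 292. In GW the 3 h intensities were 44.9, 56.5 and 82.5, and those at 6 h were 313, 148 and 240. Within each treatment every 6 h array was above every 3 h array, and the letter B array was the lowest of the 3 at 6 h in both treatments. The group means ran from 61.3 ± 19.3 (SD, n = 3) in GW at 3 h and 64.5 ± 13.9 in low potassium at 3 h to 234 ± 82.6 in GW at 6 h and 268 ± 109 in low potassium at 6 h, and treatments at the same time did not differ beyond their spread.

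The log2 rise of Scn2b was 1.73 with a standard error of 0.30 in low potassium, a 3.31-fold change (limma adjusted p = 0.00194). It was 1.61 with the same standard error in GW, a 3.05-fold change (adjusted p = 0.00227). The rise in GW minus the rise in low potassium was -0.12, with a 95% interval from -1.03 to 0.80 (adjusted p = 1). Without both 6 h letter B arrays, which also lay nearest to the 3 h arrays in the first component, the log2 rises were 2.08 and 1.88. The dimmer Scn2b probe set was below the filter and so not tested in the main fit. Its intensities were 19.7, 2.05 and 3.66 at 3 h and 38.7, 44.2 and 44.4 at 6 h in low potassium, so that the 2 times did not overlap. In GW they were 2.75, 3.71 and 1.64 at 3 h and 48.5, 3.43 and 35.1 at 6 h, where letter B remained at the 3 h level. Its log2 changes had the same sign as those of the brighter one, 1.33 and 1.14. With no filter its limma adjusted p was 0.0343 in low potassium and 0.0615 in GW, so its GW change did not pass.

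Scn2a encodes the alpha subunit of immature initial segments and of unmyelinated axons, the type of axon that granule neurons send out as parallel fibres. Its intensities in low potassium were 115, 136 and 118 at 3 h and 247, 166 and 230 at 6 h. In GW they were 102, 140 and 174 at 3 h and 326, 235 and 266 at 6 h. The times did not overlap within either treatment, and letter B was again the lowest at 6 h. The order of the group means was 123 ± 11.1 (SD, n = 3) in low potassium at 3 h, 139 ± 36.3 in GW at 3 h, 214 ± 43.0 in low potassium at 6 h and 276 ± 46.0 in GW at 6 h, and the 2 groups of a time overlapped.

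The log2 rise of Scn2a was 0.65 with a standard error of 0.19 in low potassium, or 1.57-fold (limma adjusted p = 0.027), and 0.85 in GW, or 1.80-fold (adjusted p = 0.00662). The rise in GW minus that in low potassium was 0.20, with a 95% interval from -0.39 to 0.78 (adjusted p = 1). The low-potassium call did not withstand the loss of single arrays. Its adjusted p was 0.0798 without LK 3 h A, 0.0533 without LK 3 h B, 0.0665 without LK 3 h C, 0.106 without LK 6 h A and 0.0951 without LK 6 h C, and it held without LK 6 h B and without each GW array. The log2 change lay between 0.54 and 0.81 over all 12 such fits. The GW call held in all 12.

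Scn3a, the alpha subunit that is abundant in the embryonic rodent brain and declines after birth, was dim at 3 h. Its intensities in low potassium were 17.4, 27.0 and 25.8 at 3 h and 72.6, 43.8 and 40.2 at 6 h. In GW they were 8.61, 20.0 and 21.1 at 3 h and 64.4, 49.4 and 56.6 at 6 h. Every 6 h array was above every 3 h array. The means were 16.6 ± 6.90 (SD, n = 3) in GW at 3 h, 23.4 ± 5.22 in low potassium at 3 h, 52.2 ± 17.8 in low potassium at 6 h and 56.8 ± 7.48 in GW at 6 h. The log2 change was 0.79 with a standard error of 0.22 in low potassium, or 1.73-fold (limma adjusted p = 0.0224), and 1.23 in GW, or 2.35-fold (adjusted p = 0.00191). With no filter, so that all non-control probe sets entered the adjustment, the adjusted p was 0.0406 in low potassium and 0.00369 in GW. The GW change minus the low-potassium change was 0.44, with a 95% interval from -0.24 to 1.12 (adjusted p = 1).

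The size of the Scn3a change depended on the constant added before the log: the log2 rises were 1.04 and 1.69 with 4 added and 0.41 and 0.61 with 64 added, all past the threshold. A filter at the 60th percentile removed the gene from the tests. In low potassium the adjusted p was 0.079 without LK 3 h A, 0.0525 without LK 3 h B and 0.104 without LK 6 h A, so that with each of these arrays left out 1 of the 6 probe sets, that of Scn2b, passed in place of 3.

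Scn1a, the alpha subunit best known for Dravet syndrome in humans, showed no change past the threshold. Its intensities in low potassium were 117, 131 and 107 at 3 h and 88.9, 139 and 153 at 6 h. In GW they were 127, 132 and 173 at 3 h and 123, 131 and 109 at 6 h. The low-potassium groups overlapped, with a log2 change of 0.00. The GW log2 change was -0.28 (limma adjusted p = 0.302). After normalisation the 3 GW arrays at 6 h lay below those at 3 h, while the deposited intensities overlapped. The means of the 4 groups, between 118 and 144, were not separated beyond their spread.

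Scn3b, a beta subunit that binds the alpha subunit without a covalent bond, was also without a call. Its brighter probe set read 290, 253 and 227 at 3 h and 228, 217 and 234 at 6 h in low potassium, and 255, 228 and 237 at 3 h and 212, 252 and 249 at 6 h in GW. The log2 changes with time were -0.23 in low potassium (limma adjusted p = 0.243) and -0.09 in GW (adjusted p = 0.662). The deposited intensities of the 2 times overlapped in both treatments. After normalisation the LK arrays at 6 h lay below those at 3 h. Its dimmer probe set read 87.4, 81.4 and 87.2 at 3 h and 82.0, 61.1 and 67.8 at 6 h in low potassium, and 62.9, 62.1 and 70.9 at 3 h and 81.6, 86.4 and 77.7 at 6 h in GW. In low potassium the deposited intensities of the 2 times overlapped, while after normalisation the 6 h arrays lay below the 3 h arrays. In GW all 6 h arrays were above the 3 h arrays. The log2 changes were -0.27 and 0.27 (adjusted p = 0.201 and 0.187). The 2 probe sets of Scn3b thus differed in the sign of the GW change, and neither passed.

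Scn8a and Scn4b were below the filter. Scn8a, which takes over from Scn2a at mature initial segments and nodes, read 26.1, 23.3 and 22.9 at 3 h and 38.3, 33.5 and 2.69 at 6 h in low potassium. In GW it read 17.9, 11.8 and 37.2 at 3 h and 11.3, 22.1 and 20.1 at 6 h. The times overlapped within each treatment and the treatments overlapped at each time. Scn4b, whose inner tail can block the channel and so helps to make the resurgent current of cerebellar neurons, read 15.6, 15.7 and 15.3 at 3 h and 31.6, 25.3 and 17.6 at 6 h in low potassium. In GW it read 11.8, 17.2 and 21.1 at 3 h and 19.3, 21.3 and 19.4 at 6 h. Its untested log2 changes with time were 0.40 and 0.21.

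**Figure D2:**
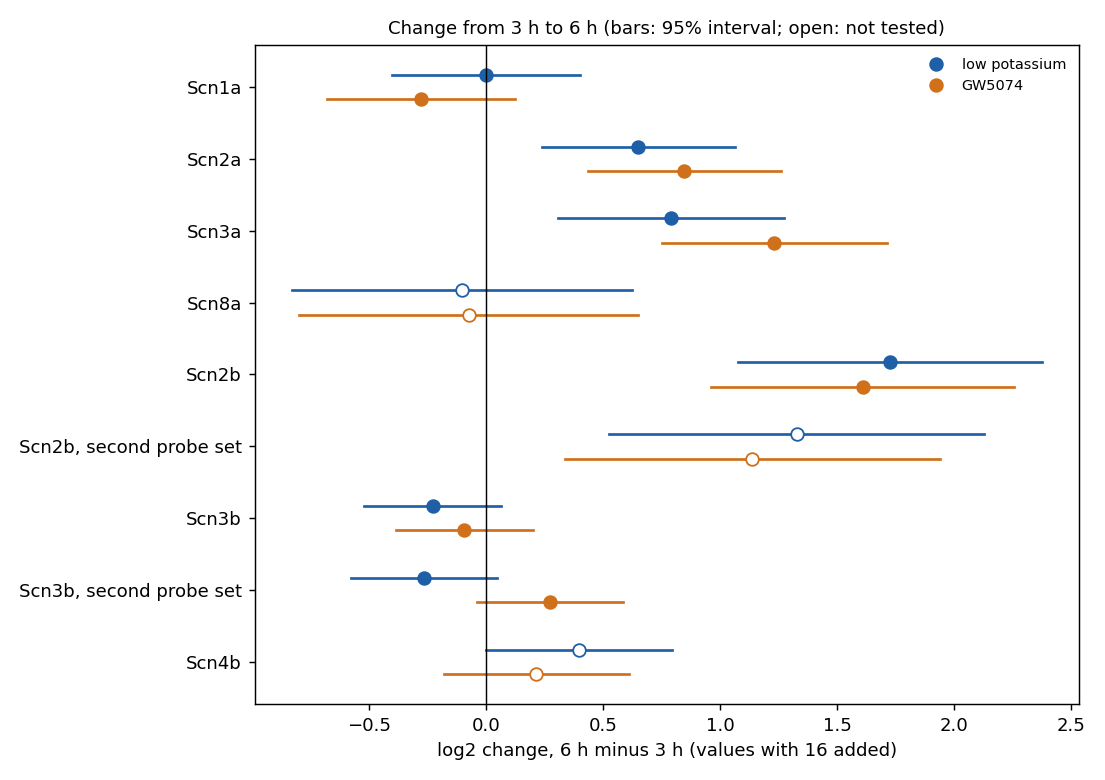
Log2 change from 3 h to 6 h (x axis, 6 h minus 3 h, values with 16 added) of the 9 probe sets in low potassium and in GW5074, n = 3 arrays per group, with 95% intervals. Open points were below the filter and not tested. Scn2b stands at 1.73 and 1.61, Scn3a at 0.79 and 1.23, Scn2a at 0.65 and 0.85, and the intervals of Scn1a and of both Scn3b probe sets include 0.

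Other measurements moved over the same interval. The summed intensity of the 13 granule neuron markers lay between 7608 and 10060 in low potassium and between 7281 and 8893 in GW at 3 h, and between 13180 and 15280 and between 12870 and 16380 at 6 h. In low potassium 7 of the 13 rose past the threshold and 1, the tubulin Tubb3, fell past it, and in GW 12 rose and none fell past it. The Tubb3 call was lost without LK 3 h B, LK 3 h C or LK 6 h B (limma adjusted p between 0.0714 and 0.0946) and without both 6 h letter B arrays (0.0591). In GW the log2 change of Tubb3 was -0.58 (adjusted p = 0.0592). It passed with a random block (0.0366) and without LK 3 h A, LK 3 h C or LK 6 h B (adjusted p between 0.0331 and 0.0391). Gabra6, a GABA receptor subunit of mature granule neurons, rose by 1.86 on the log2 scale in low potassium (limma adjusted p = 0.00179) and by 2.05 in GW (adjusted p = 0.00083). The summed astrocyte markers, 8 of 8 on the array and 7 tested, lay between 1793 and 2325 at 3 h and between 2995 and 4742 at 6 h, with Gfap as the 1 marker that rose in each treatment, by 1.87 and 1.92 on the log2 scale. The other astrocyte markers did not follow it: the median log2 change of the 7 was 0.07 in low potassium, with 4 above 0, and -0.01 in GW, with 3 above 0. Slc1a3 gave -0.33 and -0.50 and Gja1 -0.13 and -0.34, without a call. The part of these shifts in the rises of Scn2b, Scn2a and Scn3a was not tested. The summed oligodendrocyte lineage markers, 9 of 10 on the array and 7 tested, lay between 2677 and 3982 at 3 h and between 1891 and 2788 at 6 h, and 1 fell in each treatment. No marker of microglia, of endothelial cells or fibroblasts, or of GABAergic and Purkinje neurons rose, and of the last of these lists 1 fell in low potassium and 2 fell in GW.

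For the compound, none of the 6 tested probe sets differed between GW and low potassium past the threshold at 3 h, at 6 h, averaged over both times, or in the effect at 6 h minus that at 3 h. In limma without a block these comparisons called 0 probe sets in all (0% of 18625 in each), with 300, 895, 467 and 645 at an unadjusted p under 0.05. With the letter within a time as a block, so that the arrays are compared in 6 pairs, they called 3 (0.0161%), 349 (1.87%), 44 (0.236%) and 36 (0.193%), still with 0 of the 6. Of the markers, the vesicular glutamate transporter Slc17a7 was called with the block only, 0.42 higher in GW at 6 h on the log2 scale (limma adjusted p = 0.00426 with the block and 0.983 without). The comparisons share arrays with each other and with the time comparisons.

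Scn2a came nearest at 6 h. Its GW array was above the LK array of the same letter in all 3 pairs, by 0.35, 0.46 and 0.20 on the log2 scale, and the mean of 0.33 had a blocked 95% interval from 0.06 to 0.61. The blocked p was 0.0196 in limma before adjustment and 0.204 after it, and the adjusted p without the block was 0.983. At 3 h the pairs differed by -0.12, 0.05 and 0.48. The GW 3 h letter C array, which gave the largest of these 3 h differences, also had the highest 3′ minus 5′ log2 difference of the actin control probe sets, a sign of RNA quality, at 1.36 against 0.844 to 1.16 on the other 11 arrays. The mean Scn2a difference at 3 h was 0.14, and without this array it was -0.00965 with no block. Without the 3 h letter C pair it was -0.0357 with the block. The part of RNA quality in the Scn2a value was not tested. The actin difference was higher in the GW array than in the LK array of all 6 pairs. The same difference of the Gapdh control was lower in GW for 3 h A (0.0871 against 0.106) and 6 h C (0.145 against 0.188). It was higher in GW in the other pairs.

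The other members gave smaller or mixed differences. Scn1a differed at 3 h by 0.25 on the log2 scale, with pairs of 0.12, 0.01 and 0.60, the last again letter C, and at 6 h by -0.03, with pairs of 0.41, -0.09 and -0.42. Scn3a was lower in GW in all 3 pairs at 3 h, by -0.39, -0.22 and -0.28 (limma adjusted p = 1, and 0.89 with the block), and differed at 6 h by 0.15, with pairs on both sides of 0. Scn2b differed by -0.07 at 3 h and by -0.18 at 6 h, where all 3 pairs were below 0 (-0.27, -0.02 and -0.26) and the blocked 95% interval ran from -0.45 to 0.08. The brighter Scn3b probe set differed by -0.09 and 0.05.

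The dimmer Scn3b probe set changed sign between the times. The share of all probe sets with such a change of sign was not computed. At 3 h all 3 GW intensities, between 62.1 and 70.9, lay below all 3 LK intensities, between 81.4 and 87.4. The log2 difference was -0.34 with a standard error of 0.15, the pairs were -0.36, -0.30 and -0.35, and the adjusted p was 1 without and 0.738 with the block (limma). At 6 h the deposited intensities overlapped, while after normalisation the GW arrays lay above the LK arrays. The difference of 0.20 had pairs of 0.06, 0.41 and 0.15 and an adjusted p of 0.983 without and 0.533 with the block (limma). The effect at 6 h minus that at 3 h was 0.54, with a 95% interval from 0.10 to 0.98 (limma adjusted p = 1, and 0.27 with the block). The brighter probe set of the gene gave 0.14 for the same quantity, with an interval from -0.28 to 0.55.

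**Figure D3:**
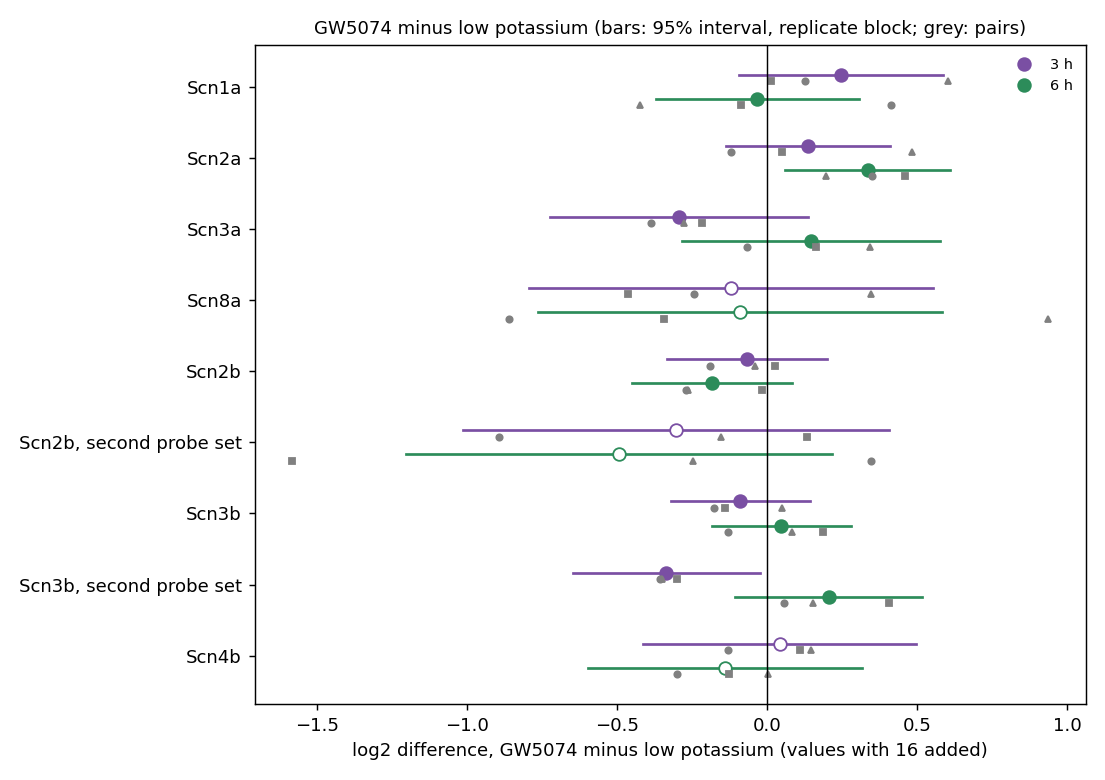
Log2 difference between GW5074 and low potassium (x axis, values with 16 added) at 3 h and at 6 h for the 9 probe sets. Large points are means of 3 pairs with the blocked 95% interval, small grey marks the single pairs (circle A, square B, triangle C), and open points were not tested. The 3 pairs of Scn2a at 6 h lie above 0, from 0.20 to 0.46, and those of the dimmer Scn3b probe set lie below 0 at 3 h and above 0 at 6 h.

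Genes that work with the channels were counted by list, each gene by its brightest probe set. Over all 10260 genes tested, 11.5% rose and 14.1% fell with time in low potassium and 13.5% rose and 14.1% fell in GW. The calls of Nalcn and Sptan1 in both treatments and of Nedd4l in GW held with each of the 12 arrays left out and without both 6 h letter B arrays, and the calls that did not are given with each gene. No gene of these lists was past the threshold for the compound, with or without the block.

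Among 8 other sodium channel genes, 6 were on the array and 2 were tested. Nalcn, the voltage-independent sodium leak channel, rose from an intensity of 211 ± 34.5 (SD, n = 3) to 396 ± 46.8 in low potassium and from 191 ± 16.1 to 408 ± 48.7 in GW. Its log2 changes were 0.82 (limma adjusted p = 0.00247) and 0.97 (adjusted p = 0.000794). Scn10a, an alpha subunit of sensory neurons, gave -0.34 and -0.05 without a call. Without both 6 h letter B arrays its change in low potassium was -0.67 (adjusted p = 0.0363), and without LK 6 h B alone the adjusted p was 0.0458.

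Of 10 genes of the initial segment and node, 9 were on the array and 8 were tested. In low potassium 1 rose and 1 fell, and in GW 2 rose. Sptan1, the alpha spectrin of the membrane skeleton, rose by 0.63 on the log2 scale in low potassium (limma adjusted p = 0.000912) and by 0.73 in GW (adjusted p = 0.000266). Ank3, the ankyrin that anchors sodium channels at the initial segment, rose in GW by 0.82 (adjusted p = 0.0447), and its change in low potassium was 0.66 (adjusted p = 0.102). The GW call was lost without LK 3 h B and without any of GW 3 h A, GW 3 h B, GW 6 h A and GW 6 h C (adjusted p between 0.0601 and 0.168), and with no filter (0.0672) or no trend (0.0626), while without LK 3 h C the low-potassium change passed (0.037). Nfasc, the adhesion protein neurofascin, fell by 0.49 in low potassium (adjusted p = 0.0367), and its change in GW was 0.16 (adjusted p = 0.481). The low-potassium call was lost without any of LK 3 h A, B and C, GW 3 h B, LK 6 h A and LK 6 h C (adjusted p between 0.0527 and 0.124), with the deposited scaling alone (0.0618) and with no filter (0.0537). The difference between the 2 Nfasc changes was 0.65 (limma adjusted p = 1, and 0.105 with the block), so these data do not show that they differ.

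Of 4 fibroblast growth factor homologous factors, proteins inside the cell that bind the tails of sodium channels, all were on the array and 3 were tested. Fgf12 rose by 0.78 on the log2 scale in low potassium (limma adjusted p = 0.0187) and by 0.83 in GW (adjusted p = 0.0131). The first call was lost without LK 3 h B (0.0772, with a change of 0.48) or LK 6 h A (0.072), and the second without GW 6 h A (0.0617). Fgf13 and Fgf14, the latter known for ataxia in humans, changed by 0.08 and 0.11 in low potassium and by 0.07 and 0.14 in GW, with no call, and the sign of both Fgf13 changes turned with the deposited scaling alone.

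Of 4 genes of channel turnover and processing, all were tested, and in each treatment 1 rose and 1 fell. Nedd4l, a ubiquitin ligase that binds the tails of sodium channels, rose by 0.44 on the log2 scale in low potassium (limma adjusted p = 0.0442) and by 0.61 in GW (adjusted p = 0.00898). The low-potassium call was lost without any one of 9 arrays, all but LK 3 h C, GW 6 h B and GW 6 h C (adjusted p up to 0.154), without both 6 h letter B arrays (0.0811), with no filter (0.0709) and with a random block (0.0611). Usp36, a deubiquitinase, fell by 0.68 (adjusted p = 0.0163) and by 0.75 (adjusted p = 0.00933). Its first call was lost without LK 3 h B, LK 3 h C, LK 6 h A or LK 6 h C (adjusted p between 0.0594 and 0.0708) and its second without GW 6 h A (0.0538). Bace1, the protease that cuts beta subunits, changed by 0.26 and 0.52 without a call, though the second passed without GW 3 h A (adjusted p = 0.0309).

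REST is a repressor of neuronal genes in other cells, Scn2a among its classic targets. Of 3 genes of its complex, 2 were tested, and Rest itself was below the filter. The corepressor Rcor1 rose by 1.04 on the log2 scale in low potassium (limma adjusted p = 0.0123) and changed by 0.53 in GW (adjusted p = 0.158), with the first call lost without LK 6 h A (adjusted p = 0.054). Sin3a, the other corepressor, rose by 0.67 in GW (adjusted p = 0.0351) and changed by 0.50 in low potassium (adjusted p = 0.11). The GW call was lost without any of GW 3 h A, B and C and GW 6 h A and C (adjusted p between 0.0523 and 0.165) and with no filter (0.069), and the low-potassium change passed without LK 6 h B (0.0322) and without both 6 h letter B arrays (0.0115).

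**Figure D4:**
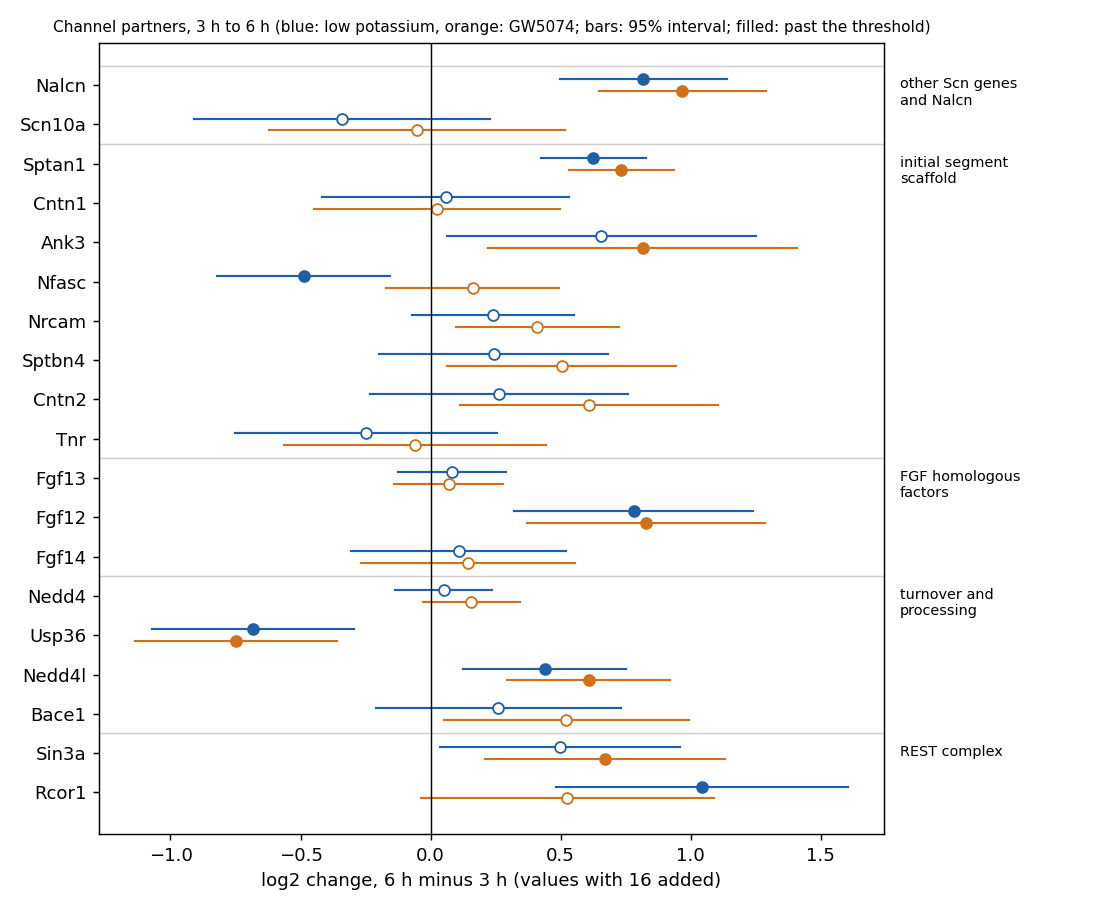
Log2 change from 3 h to 6 h (x axis, values with 16 added) of the tested genes of 5 lists of channel partners, with 95% intervals, n = 3 arrays per group. Filled points passed the threshold: Nalcn, Sptan1, Fgf12 and Nedd4l to the right and Usp36 to the left in both treatments, Ank3, Nfasc, Sin3a and Rcor1 in 1 treatment.

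The genes whose pattern was most like that of Scn2b, the gene with the widest range of group means (1.79 on the log2 scale), were found by the root-mean-square difference over the 12 arrays after each of 10255 genes was centred on its own mean. Fn3k, which encodes a kinase of glycated proteins, differed by 0.171 on the log2 scale. Rasa3, a GTPase-activating protein of Ras and Rap, differed by 0.217, and Tmem178a, a membrane protein, by 0.227. Each of the 3 was lower in letter B than in letters A and C at 6 h, as Scn2b was. They were picked by likeness over these same 12 arrays, so the shared pattern follows from the choice and is no separate result. The 6 h letter B arrays also lay nearest to the 3 h arrays in the first component.

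**Figure D5:**
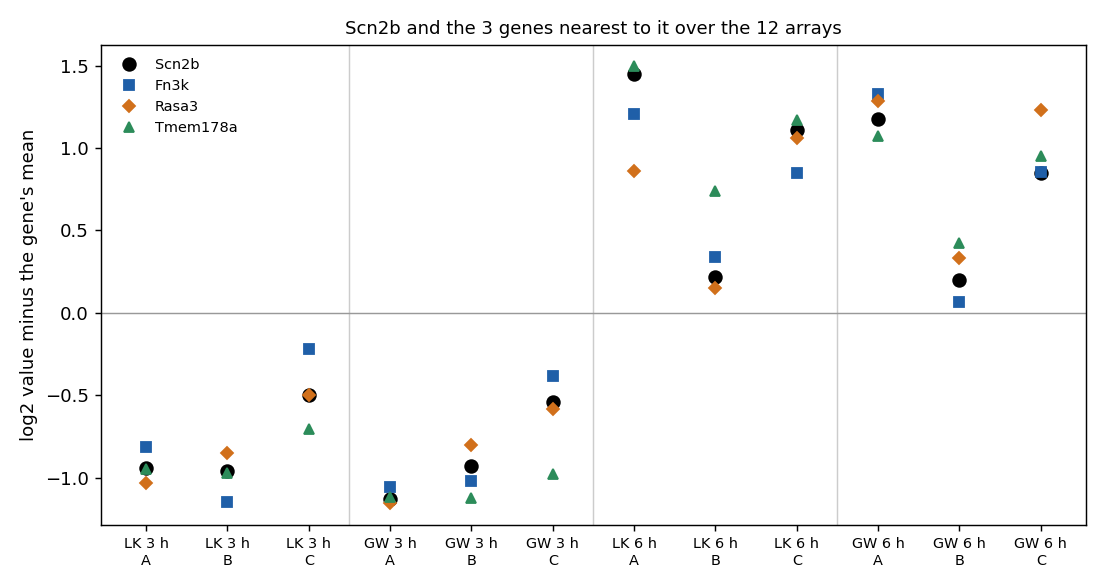
Centred log2 value (y axis, each gene minus its mean over the 12 arrays) of Scn2b and the 3 genes nearest to it, 1 point per gene and array. All 4 genes lie below 0 on the 6 arrays at 3 h and above 0 on the 6 at 6 h, with the letter B arrays lowest at 6 h. The 3 genes were selected for this likeness over the same arrays.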

How the data were processed

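Total RNA of 12 samples was read on an Affymetrix rat array with 31099 probe sets, 57 of them controls. The authors deposited linear intensity values, 1 for each probe set on each array, with every array scaled to a mean of about 150 after the lowest and highest 2% were removed, as the values show. The sources used here do not give the scanner files, the summarisation or the software. The highest correlation between 2 arrays of a group was 0.9799, and no columns were identical. The number of arrays limits the precision.

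From the deposited intensity, non-control probe sets were quantile-normalised, 16 was added and log2 was taken, and the filter on low signal left 18625 probe sets. Group means were fitted for the 4 groups, with no block, in limma 3.58.1 (R 4.3.3), by lmFit and then eBayes with trend = TRUE and 2-sided tests. The code was tested on simulated data. The p-values were adjusted over all probe sets kept. Probe sets were named from the platform table (436 with several symbols and 9780 with none were not used by name), and promoters come from RefSeq. Figures were drawn with matplotlib 3.10.9.

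The letters in the labels pair 1 LK with 1 GW array within a time. After removal of the group means, the correlation of the pairs of letters A, B and C was 0.426, 0.209 and 0.543 at 3 h and 0.293, 0.65 and 0.571 at 6 h, so the letter was used as a replicate block in a second fit for the GW comparisons. Arrays of 1 letter at different times correlated by -0.0668 to 0.182 and were not paired.

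Named were the 7 members and, from each list of partners, every gene past the threshold for the compound and up to 4 with the largest change past it with time. With none past, the 2 with the smallest p were taken. The members and lists were chosen with earlier results of these data known. Scn10a, Slc17a7, Fgf13, Fgf14, Bace1 and the single cell type markers were named after their values were seen. Alternatives were other scalings, added constants, filters, blocks, the mean over the probe sets of a gene, no trend, and arrays or pairs left out.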

Additional observations from a re-analysis of the deposited data

Results flagged for a closer look

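The dimmer Scn3b probe set was lower in GW than in low potassium at 3 h in all 3 pairs and higher at 6 h in all 3 pairs. It was picked for this pattern out of the 9 probe sets, and the share of all probe sets with the pattern was not computed. The effect at 6 h minus that at 3 h was 0.541 on the log2 scale. The test of this difference did not pass (limma, adjusted p = 1 without the replicate block and 0.27 with it), and the value lay between 0.457 and 0.616 when single arrays were left out. The brighter Scn3b probe set gave 0.14.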

How the results depend on the processing

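The rises of the brighter Scn2b probe set in both treatments and of Scn2a and Scn3a in GW kept their direction and their call. This held in every alternative that could be run, and the filter at the 60th percentile removed Scn3a. The mean over the probe sets of a gene could not change them, since each of these genes has a single probe set past the filter. With no filter the dimmer Scn2b probe set did not pass in GW (limma adjusted p = 0.0615). In low potassium the calls of Scn2a and Scn3a were lost without single arrays, as given with them above. The count of members that rose in low potassium lay between 1 and 3 without single arrays, and in GW it was 3 in each of these fits. The GW count includes Scn3a, whose entry into the tests depended on the rise itself. A constant count is thus partly set by the filter and supports nothing about the family. All probe sets called with time numbered between 2192 and 4957 in low potassium and between 2454 and 5363 in GW without single arrays.

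For the compound, the replicate block within time called 3 probe sets at 3 h, 349 at 6 h, 44 averaged over the times and 36 for the effect at 6 h minus that at 3 h. A random replicate block called 103 at 6 h and 18 averaged. Without single arrays and with no block, between 0 and 3 were called at 6 h and between 0 and 3 averaged. With the block and without single pairs, between 0 and 6 were called at 3 h, between 59 and 292 at 6 h, between 15 and 48 averaged and between 0 and 156 for the difference of effects. No sodium channel probe set was called in any of these. Beyond these counts and the marker Slc17a7 at 6 h, the replicate block within time changed no call for the compound given in the text. With the random block the time calls of Nedd4l in low potassium and of Tubb3 in GW changed, as given with them above.

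Signs turned in small differences that never passed the threshold. The Scn1a change in low potassium was -0.0068 with cyclic loess, -0.00201 with 4 added and -0.0748 without both 6 h letter B arrays, and lay between -0.14 and 0.218 without single arrays. The Scn1a difference for the compound at 6 h lay between -0.249 and 0.109 without single arrays and between -0.255 and 0.163 without single pairs. The Scn2a difference at 3 h lay between -0.00965 and 0.307, and between -0.0357 and 0.266 without single pairs. That of Scn2b lay between -0.231 and 0.0832 at 3 h and between -0.537 and 0.0864 at 6 h with no block, while with the block and without single pairs it stayed below 0, between -0.115 and -0.00677 and between -0.267 and -0.141. The Scn3b difference at 6 h was -0.0226 without both 6 h letter B arrays, and lay between -0.0226 and 0.136 without single pairs. Its change with time in GW was 0.0906 with the mean over its probe sets. Of the other genes named, for which these alternatives were added after the data were seen, Fgf13 gave -0.0366 and -0.074 with the deposited scaling alone. Without single arrays the GW changes of Scn10a lay between -0.236 and 0.141 and those of Fgf14 between -0.0395 and 0.244. The cause was not tested. With 3 arrays a group, dim probe sets such as those of Scn8a and Scn4b were not resolved.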
